A study of Mus musculus with 26 samples.

Results

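The genes described here are 53 genes of cell division, measured by RNA sequencing in mouse ear skin. They were chosen by name for their role in DNA replication, mitosis or cyclin function, and are 53 of the 57010 gene identifiers in the count table. All 53 had enough reads to be tested, as had 20167 genes in all. By role, 23 are called replication genes: those of S phase entry and DNA replication, and the E2F, Foxm1 and Mybl2 transcription factors. Of these, Foxm1 and Mybl2 serve mitotic genes but were counted here. The other 30 act in mitosis.

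In the study, dermatitis was induced on the right ears of female Balb/cAnNRj mice, wild type and bought at 8 weeks of age, with MC903. MC903, or calcipotriol, acts on the vitamin D receptor and brings on an eczema-like inflammation when painted on mouse skin. The MC903+RGRN-305 group (8 mice) was given 1 nmol of MC903 per day for 6 days and RGRN-305, an inhibitor of the chaperone HSP90, on the skin at 1 mg per day. The MC903+Dexamethasone group (4 mice) was given the same MC903 and the corticosteroid dexamethasone on the skin at 20 nmol per day. The MC903 group (8 mice) was given the same MC903 and the ethanol in which the drugs were dissolved, and the vehicle group (6 mice) only the carriers without MC903 or drug. A punch of whole ear skin was taken on day 9, and each mouse gave 1 library. No group analysed here was given a drug without MC903, so each drug was read only on top of MC903. The punch holds epidermis, hair follicles, dermis, infiltrating leukocytes and cartilage, so that more dividing cells and more RNA of these genes per dividing cell cannot be told apart.

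A cell enters S phase when cyclin-dependent kinases inactivate the retinoblastoma proteins and so release E2F factors, which switch on the genes that license replication origins, open the DNA and supply nucleotides. Later in the cycle the Mybl2 and Foxm1 factors switch on the genes for chromosome condensation, the spindle and cell separation. In skin, dividing cells sit mainly in the basal layer of the epidermis and in growing hair follicles, and epidermal thickening through keratinocyte division is a hallmark of dermatitis, while activated lymphocytes divide as well.

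Many promoters of these genes carry 1 of 2 kinds of sequence element, shown here because each was more frequent in 1 of the 2 role groups. RefSeq promoters (build GRCm38.p6), from 250 bases before to 50 bases after the start of the gene, were at hand for 45 of the 53 genes, with 48 promoters in all. Both strands were searched for 4 spellings of the E2F site (TTTCGCGC, TTTGGCGC, TTTCCCGC and TTTGCCGC), for the cell cycle genes homology region or CHR (TTTGAA), which is bound in complexes with Mybl2 and Foxm1, and for the CCAAT box (CCAAT). An E2F word was in 8 of 21 promoters of the replication group (38.1%) and in 1 of 27 of the mitotic group (3.7%), beside 2.26% of all 32851 promoters. A CHR was in 21 of 27 mitotic promoters (77.8%) and in 4 of 21 replication promoters (19.0%), beside 17.9% of all promoters. A CHR together with a CCAAT box was in 18 of 27 mitotic promoters (66.7%) and in 4 of 21 replication promoters (19.0%), beside 6.95% of all. The CCAAT box itself was common in both groups, in 21 of 27 mitotic (77.8%) and 14 of 21 replication promoters (66.7%), beside 37.4% of all. A match is a stretch of letters, not proof of a bound site. In the 5 promoters below, chosen after the matches were seen, the capitals mark the matches to any of these words. E2f7 (chr10:110745189-110745488, plus strand) and Mcm6 (chr1:128359656-128359955, minus strand) show the E2F type, and 2 of the 3 words of Mcm6 overlap. Ccnb2 (chr9:70421505-70421804, minus strand) and Cdc20 (chr4:118437294-118437593, minus strand) show the CHR and CCAAT type. Cdk1 (chr10:69352863-69353162, minus strand) held both.
E2f7: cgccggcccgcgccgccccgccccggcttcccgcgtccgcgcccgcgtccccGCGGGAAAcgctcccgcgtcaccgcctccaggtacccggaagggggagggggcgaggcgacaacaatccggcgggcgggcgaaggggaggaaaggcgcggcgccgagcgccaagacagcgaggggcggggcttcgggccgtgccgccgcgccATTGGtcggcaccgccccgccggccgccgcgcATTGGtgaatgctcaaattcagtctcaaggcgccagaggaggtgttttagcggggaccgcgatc
Mcm6: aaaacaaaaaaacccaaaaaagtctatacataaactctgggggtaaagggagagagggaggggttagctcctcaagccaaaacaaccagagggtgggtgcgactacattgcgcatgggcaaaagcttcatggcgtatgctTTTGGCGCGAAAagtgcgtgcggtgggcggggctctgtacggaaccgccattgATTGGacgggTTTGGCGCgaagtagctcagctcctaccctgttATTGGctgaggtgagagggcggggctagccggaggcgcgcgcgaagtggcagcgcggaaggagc
Ccnb2: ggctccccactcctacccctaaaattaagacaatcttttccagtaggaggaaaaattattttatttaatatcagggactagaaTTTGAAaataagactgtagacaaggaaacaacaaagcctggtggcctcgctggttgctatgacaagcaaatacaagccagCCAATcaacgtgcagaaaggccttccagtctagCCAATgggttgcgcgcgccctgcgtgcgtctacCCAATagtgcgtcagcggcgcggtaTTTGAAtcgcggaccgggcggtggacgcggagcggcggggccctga
Cdc20: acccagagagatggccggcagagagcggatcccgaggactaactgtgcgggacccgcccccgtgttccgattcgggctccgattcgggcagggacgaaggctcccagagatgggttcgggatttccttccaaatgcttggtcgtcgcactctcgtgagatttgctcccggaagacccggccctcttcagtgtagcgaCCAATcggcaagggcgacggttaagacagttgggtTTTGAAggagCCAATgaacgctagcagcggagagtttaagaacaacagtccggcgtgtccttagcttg
Cdk1: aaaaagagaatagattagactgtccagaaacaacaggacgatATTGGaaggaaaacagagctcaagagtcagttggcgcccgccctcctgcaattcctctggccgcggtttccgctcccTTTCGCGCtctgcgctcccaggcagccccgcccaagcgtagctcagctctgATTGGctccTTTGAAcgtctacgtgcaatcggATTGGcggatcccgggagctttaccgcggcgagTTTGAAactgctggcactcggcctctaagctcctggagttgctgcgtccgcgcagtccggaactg

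Levels are given in CPM, the count of a gene relative to the total of its library, with totals scaled by the TMM method. Each library held 20020975 to 26516232 counts in MC903+RGRN-305 ears, 20625369 to 28838836 in MC903+Dexamethasone ears, 14311046 to 28036747 in MC903 ears and 13695023 to 35130972 in vehicle ears. A gene is said to have risen or fallen where the adjusted p of edgeR's quasi-likelihood test, over all 20167 genes, was below 0.05. Fold changes are on the log2 scale with their standard error. Labels do not say whether mice of a group shared a cage or a day. Nor do they say which of the study's independent experiments gave each mouse. The p-values therefore cover the spread between these mice, and a difference between experiments was not modelled. Basal keratinocyte markers (Krt5, Krt14 and 6 others) were abundant in every ear, with summed levels of 13469 to 24356 CPM, and stress keratins (Krt6a, Krt6b, Krt16, Krt17), leukocyte, macrophage, fibroblast, cartilage, muscle and fat markers were also detected, as whole ear skin holds them.

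The 53 genes together had a summed level of 1296 to 1846 CPM (median 1500.3) in MC903+RGRN-305 ears, of 1701 to 2022 CPM (median 1782) in MC903+Dexamethasone ears, of 1667 to 1891 CPM (median 1840) in MC903 ears and of 770.4 to 1065 CPM (median 911.2) in vehicle ears. Every ear given MC903 thus lay above every vehicle ear, whatever the drug. Within the sum, the 2 groups of genes parted. The 23 replication genes had medians of 603.1 CPM in MC903+RGRN-305 ears, 726.0 in MC903+Dexamethasone ears, 790.6 in MC903 ears and 398.6 in vehicle ears. The 30 mitotic genes had medians of 908.2 CPM in MC903+RGRN-305 ears, 1063 in MC903+Dexamethasone ears, 1020 in MC903 ears and 506.6 in vehicle ears. The ratio of the replication to the mitotic sum was 0.645 to 0.828 (median 0.678) in MC903+RGRN-305 ears and 0.673 to 0.739 (median 0.680) in MC903+Dexamethasone ears, against 0.735 to 0.891 (median 0.783) in MC903 ears and 0.725 to 0.929 (median 0.855) in vehicle ears. The groups overlapped in this ratio. Set per kilobase of the gene length deposited with the counts, Pcna, the sliding clamp of DNA polymerase, had the highest level of the 53 genes in MC903 ears, 27.7 CPM per kilobase, and Cdc6, which loads the replicative helicase, the lowest, 1.58 CPM per kilobase.

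**Figure D1:**
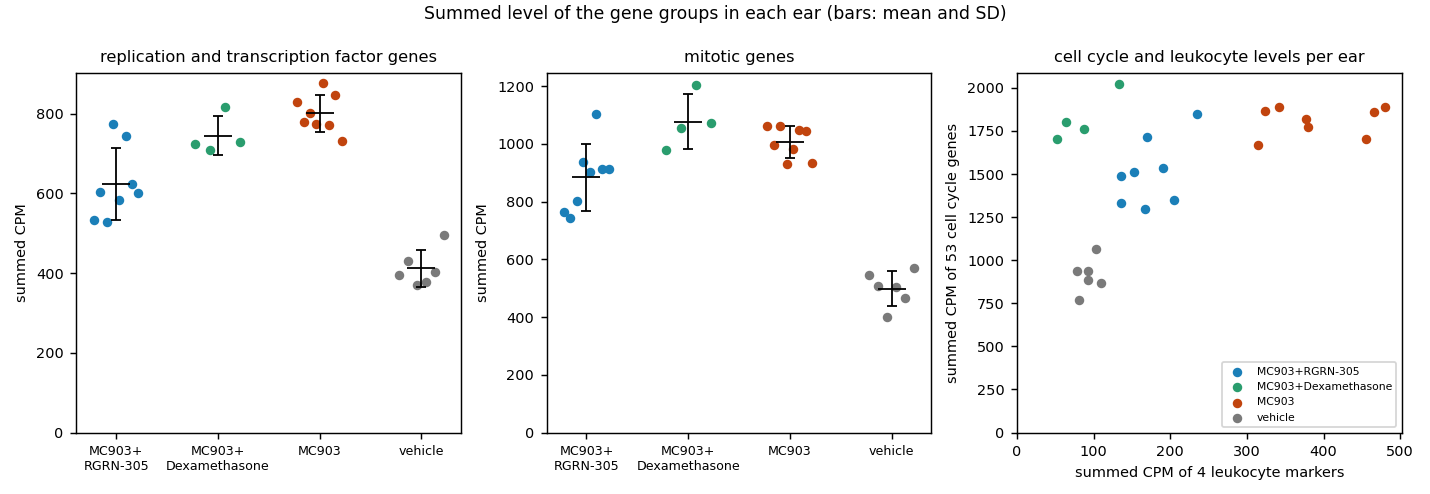
The left and middle panels plot the summed CPM of the 23 replication and transcription factor genes and of the 30 mitotic genes in each ear (points), with the group mean and SD (bars), and the right panel plots the summed CPM of all 53 genes against that of 4 leukocyte markers. Ears given MC903 lie above vehicle ears in the left and middle panels, and MC903+Dexamethasone ears combine a high cell cycle level (1701 to 2022 CPM) with a leukocyte level (52.1 to 132.9 CPM) that overlaps that of vehicle ears (78.0 to 110.3 CPM).

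The comparison of MC903 with vehicle ears asked how far the model raised the division genes. Of the 53 genes, 52 rose in MC903 ears and none fell, beside 34.5% of all genes tested that rose and 35.7% that fell. The exception, Ttk, was not called. With TMM factors and all 26 ears, edgeR called no fall, nor did DESeq2, and Ttk was the 1 gene lower at an unadjusted p below 0.05 in edgeR. The median log2 fold change was 1.04 over the 53 genes, against -0.02 over all genes. For 46 of them every MC903 ear lay above every vehicle ear, and for none below, beside 20.9% of all genes tested above and 21.1% below. Of the 53 genes, 5 (E2f7, Ccne1, Mcm5, Rrm2 and Birc5) passed the log2 fold change limit of 1.5 that the study itself used, beside 7.46% of all genes tested that passed it upward and 7.58% downward. The mitotic genes had a median of 1.21 and the replication genes one of 0.80, but the largest single rises were among the regulators of S phase.

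The E2F and mitotic transcription factors all rose. E2f7 (ENSMUSG00000020185), an E2F that represses other E2F targets late in S phase, had 24.6 to 41.97 CPM (median 31.8) in MC903 ears, against 1.11 to 3.05 CPM (median 2.18) in vehicle ears. The groups stood far apart, and its log2 fold change of 3.95 ± 0.25 (adjusted p 5.9e-13), or 15.5-fold, was the largest of the 53 genes. Its close relative E2f8 had 21.5 to 30.9 CPM (median 26.4) in MC903 ears, against 8.30 to 12.1 CPM (median 8.94) in vehicle ears, with a log2 fold change of 1.47 ± 0.12 (adjusted p 1.1e-11). E2f1, the activating E2F of S phase entry, had 13.9 to 19.3 CPM (median 16.5) in MC903 ears, against 9.08 to 12.6 CPM (median 9.66) in vehicle ears (0.69 ± 0.10, adjusted p 5.2e-07). Neither gene overlapped between the groups. Mybl2, which with its partner proteins turns on mitotic genes, had 7.73 to 14.2 CPM (median 12.9) in MC903 ears, against 3.91 to 5.08 CPM (median 4.67) in vehicle ears, a log2 fold change of 1.39 ± 0.14 (adjusted p 5.2e-10). Foxm1, the forkhead factor of the same program, had 17.7 to 24.8 CPM (median 22.4) in MC903 ears, against 11.04 to 15.1 CPM (median 13.2) in vehicle ears (0.71 ± 0.11, adjusted p 3.0e-06). E2f2, another activating E2F, rose least of the 6 (0.36 ± 0.10, adjusted p 0.0019).

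Genes that start and carry out DNA replication rose together, 10 of 10 of the licensing and helicase genes and 5 of 5 of the clamp and nucleotide genes. Ccne1, the cyclin E that drives S phase entry, had 10.4 to 17 CPM (median 11.9) in MC903 ears, against 3.13 to 4.95 CPM (median 3.56) in vehicle ears (1.75 ± 0.17, adjusted p 2.9e-10). Its paralog Ccne2 had 6.65 to 11.3 CPM (median 8.88) in MC903 ears, against 4.20 to 9.01 CPM (median 6.06) in vehicle ears (0.52 ± 0.15, adjusted p 0.0037). The groups overlapped for Ccne2 and not for Ccne1. Mcm2 and Mcm5 are subunits of the replicative helicase. Mcm5 had 60.4 to 76.9 CPM (median 70.7) in MC903 ears, against 19.7 to 32.8 CPM (median 23.3) in vehicle ears (1.53 ± 0.13, adjusted p 3.2e-11). Mcm2 had 30.1 to 41.2 CPM (median 37.7) in MC903 ears, against 14.6 to 28.02 CPM (median 16.8) in vehicle ears (0.97 ± 0.12, adjusted p 2.0e-08). Both kept clear of the vehicle range, although the highest vehicle ear for each, mouse 6, came close to it for Mcm2. Of the proteins that load the helicase, Cdc6 had 6.96 to 9.59 CPM (median 8.42) in MC903 ears, against 3.49 to 6.90 CPM (median 4.34) in vehicle ears (0.81 ± 0.13, adjusted p 3.5e-06), and Cdt1 had 21.1 to 28.7 CPM (median 24.4) in MC903 ears, against 12.5 to 17.7 CPM (median 13.3) in vehicle ears (0.80 ± 0.11, adjusted p 1.6e-07).

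Among the genes of nucleotide supply, Rrm2, the regulated subunit of ribonucleotide reductase, had 58.3 to 100.01 CPM (median 73.7) in MC903 ears, against 22.6 to 26.6 CPM (median 24.8) in vehicle ears (1.61 ± 0.16, adjusted p 1.9e-09). Tk1, thymidine kinase, had 19.8 to 23.9 CPM (median 21.6) in MC903 ears, against 9.95 to 16.8 CPM (median 12.9) in vehicle ears (0.71 ± 0.10, adjusted p 7.8e-07). Pcna had 58.6 to 80.6 CPM (median 63.97) in MC903 ears, against 38.4 to 50.01 CPM (median 43.7) in vehicle ears (0.61 ± 0.10, adjusted p 2.2e-06). All 3 genes were separate between the groups, and Rrm2 rose the most. The smallest rise of the replication genes was that of Gins2, a part of the helicase complex, at 0.22 ± 0.10 (adjusted p 0.048). It was called in 10 of the 26 fits that each left out 1 mouse.

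The mitotic genes rose by log2 fold changes of 0.30 (Kif23) to 1.66 (Birc5), Ttk aside. Ccna2, the cyclin A of S and early mitosis, had 46 to 55.5 CPM (median 49.4) in MC903 ears, against 16.4 to 27.4 CPM (median 22.4) in vehicle ears (1.18 ± 0.11, adjusted p 5.0e-10). Ccnb1, the main mitotic cyclin, had 16.4 to 21 CPM (median 18.1) in MC903 ears, against 5.95 to 10.2 CPM (median 7.92) in vehicle ears (1.22 ± 0.13, adjusted p 1.7e-09). Their kinase partner Cdk1 had 24.2 to 39.7 CPM (median 32.6) in MC903 ears, against 9.24 to 15.7 CPM (median 12.8) in vehicle ears (1.41 ± 0.13, adjusted p 1.6e-10). No MC903 ear reached down to the vehicle range for any of the 3 genes. Plk1, the polo-like kinase of mitotic entry, had 17.01 to 22.3 CPM (median 20.3) in MC903 ears, against 5.45 to 9.23 CPM (median 7.32) in vehicle ears (1.47 ± 0.12, adjusted p 3.5e-11). Birc5, or survivin, a subunit of the chromosomal passenger complex, had 25.1 to 39.3 CPM (median 31.05) in MC903 ears, against 7.46 to 12.9 CPM (median 10.2) in vehicle ears (1.66 ± 0.12, adjusted p 3.1e-12). The kinase of that complex, Aurkb, rose less, with 19.6 to 26.8 CPM (median 21.9) in MC903 ears, against 9.29 to 12.3 CPM (median 11.4) in vehicle ears (1.04 ± 0.09, adjusted p 1.0e-10).

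For the rest of the mitotic apparatus, Bub1b, a spindle checkpoint protein, had 21.7 to 27.8 CPM (median 25.95) in MC903 ears, against 9.62 to 13.5 CPM (median 11.7) in vehicle ears (1.14 ± 0.10, adjusted p 7.0e-11). Cdc20, the activator of the anaphase-promoting complex, had 41.1 to 48.7 CPM (median 44.2) in MC903 ears, against 17.9 to 26.2 CPM (median 21.3) in vehicle ears (1.004 ± 0.10, adjusted p 4.9e-10). Kif11, the kinesin that pushes the spindle poles apart, had 24.9 to 32.2 CPM (median 29.6) in MC903 ears, against 9.64 to 13.6 CPM (median 11.7) in vehicle ears (1.31 ± 0.11, adjusted p 4.7e-11). These 3 genes were also without overlap. Kif20a, a kinesin of cell separation, had 19.9 to 28.3 CPM (median 24.9) in MC903 ears, against 10.6 to 16.3 CPM (median 13.9) in vehicle ears (0.86 ± 0.11, adjusted p 1.0e-07). Cenpf, an outer kinetochore protein, had 19.01 to 29.8 CPM (median 25.2) in MC903 ears, against 13.2 to 24.6 CPM (median 18.8) in vehicle ears, and here the ranges overlapped (0.40 ± 0.12, adjusted p 0.0047). Top2a, the topoisomerase that disentangles sister chromatids, had 134 to 157 CPM (median 148) in MC903 ears, against 44.96 to 60.1 CPM (median 54.6) in vehicle ears (1.44 ± 0.10, adjusted p 8.7e-13). Mki67, the antigen of the Ki-67 stain, had a smaller rise, with 126 to 147 CPM (median 135) in MC903 ears, against 64.99 to 93.5 CPM (median 78.8) in vehicle ears (0.75 ± 0.08, adjusted p 3.5e-09).

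Ttk (ENSMUSG00000038379), the checkpoint kinase Mps1, was the only one of the 53 genes not called, with 14.9 to 19.9 CPM (median 17.3) in MC903 ears, against 17.6 to 23.4 CPM (median 18.99) in vehicle ears (-0.17 ± 0.08, adjusted p 0.057). Its value was lower in MC903 ears, and in 9 of the 26 fits that each left out 1 mouse (vehicle mouse 2, 3, 5 or 6, MC903 mouse 1, 3 or 7, or MC903+RGRN-305 mouse 6 or 7) it passed the threshold as a fall. Leukocyte markers (Ptprc, Cd52, Coro1a, Laptm5) moved with these rises, 4 of 4 of them higher, with summed levels of 313.8 to 480.5 CPM in MC903 ears, against 78.0 to 110.3 CPM in vehicle ears. Stress keratins also rose, 4 of 4, to 10369 to 30649 CPM in MC903 ears, against 295.3 to 376.5 CPM in vehicle ears. The part of either cell type in the rise of the division genes was not tested.

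**Figure D2:**
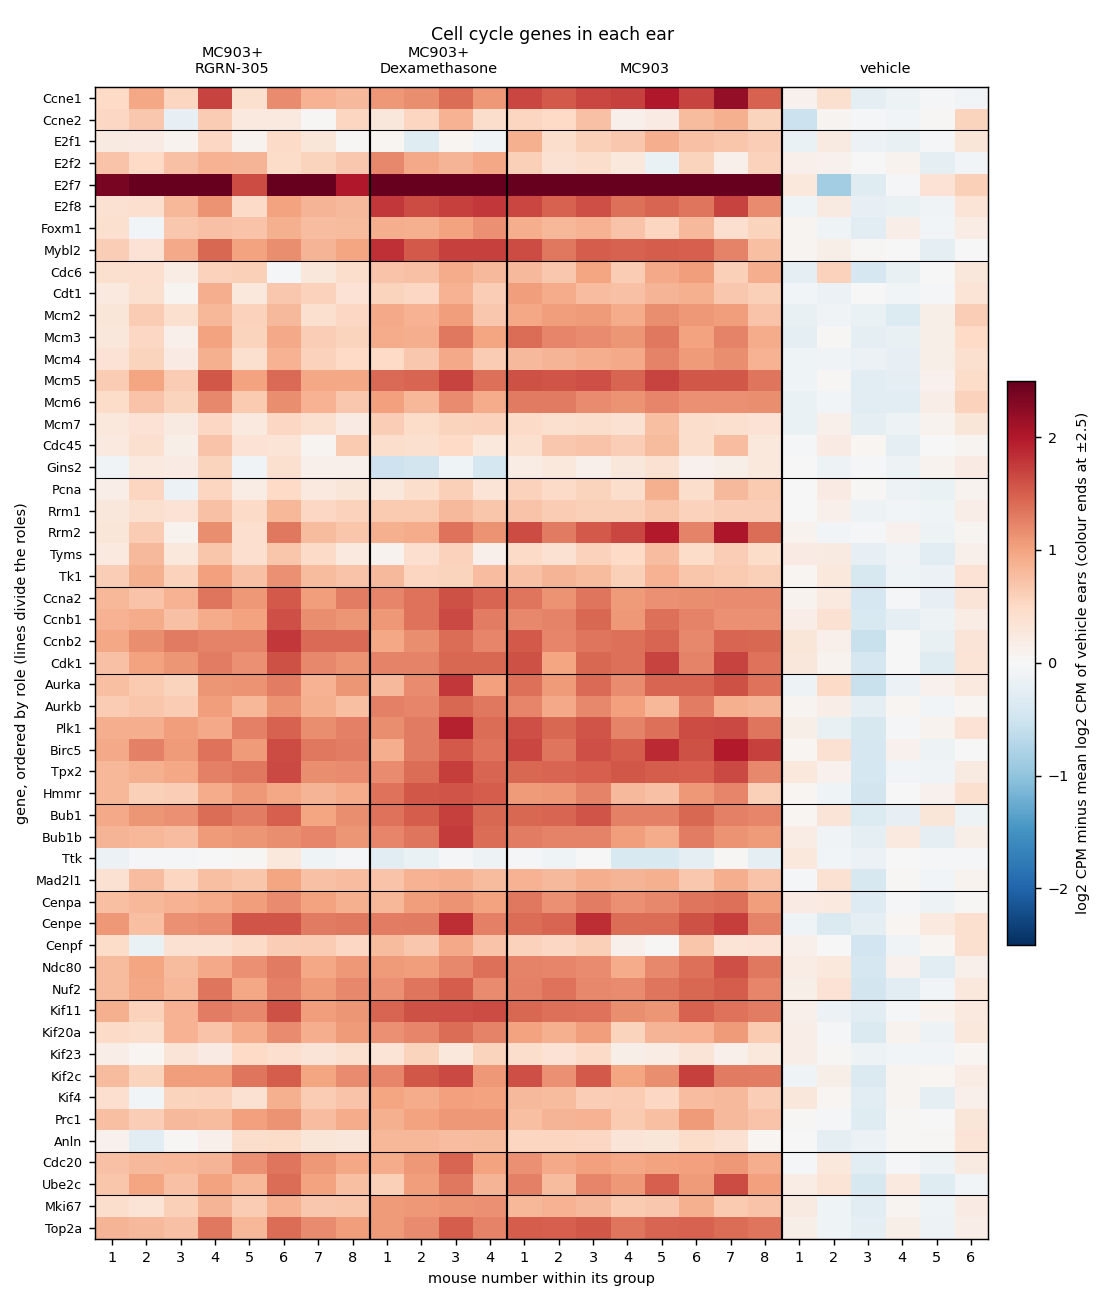
Each row is 1 of the 53 genes, ordered by role, and each column 1 ear, with the mouse number below and the group above. Colour is log2 CPM minus the mean log2 CPM of vehicle ears and ends at ±2.5, which E2f7 exceeds in most ears given MC903. Red fills nearly all rows in the 3 groups given MC903, apart from rows such as Ttk and Gins2.

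The comparison of MC903+RGRN-305 with MC903 ears asked what HSP90 inhibition did to these genes. In MC903+RGRN-305 ears 21 of the 53 genes fell and 1 rose, beside 19.4% of all genes tested that fell and 18.6% that rose. The median log2 fold change over the 53 genes was -0.22, against 0.03 over all genes, and none passed the study's own log2 fold change limit of 1.5, which 3.12% of all genes tested passed as falls and 0.560% as rises. The falls lay mainly in the replication genes, with 14 of 23 lower, Mybl2 among them, at a median of -0.39. Of 30 mitotic genes 7 were lower, at a median of -0.18. That share of the mitotic genes was near the 19.4% of all genes tested that fell. A difference between the 2 gene groups was not tested. E2f7 and E2f8 were the 2 genes of the 53 without overlap between the groups, both lower, a share below the 7.18% of all genes tested that were lower without overlap (3.57% were higher).

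E2f7 had the largest fall, followed by Rrm2, Ccne1 and E2f8. E2f7 had 6.29 to 19.2 CPM (median 13.8) in MC903+RGRN-305 ears, against 24.6 to 41.97 CPM (median 31.8) in MC903 ears (-1.33 ± 0.19, adjusted p 4.6e-06). E2f8 had 12.4 to 20.8 CPM (median 16.9) in MC903+RGRN-305 ears, against 21.5 to 30.9 CPM (median 26.4) in MC903 ears (-0.72 ± 0.10, adjusted p 3.3e-06). Every ear given RGRN-305 lay below every MC903 ear for both genes. E2f1 had 10.53 to 14.7 CPM (median 11.9) in MC903+RGRN-305 ears, against 13.9 to 19.3 CPM (median 16.5) in MC903 ears (-0.45 ± 0.09, adjusted p 2.6e-04), with 6 of 8 ears below the MC903 range. Mybl2 had 5.94 to 12.5 CPM (median 8.998) in MC903+RGRN-305 ears, against 7.73 to 14.2 CPM (median 12.9) in MC903 ears (-0.43 ± 0.12, adjusted p 0.0047). Foxm1 did not pass the test, with 12.5 to 24.3 CPM (median 21.8) in MC903+RGRN-305 ears, against 17.7 to 24.8 CPM (median 22.4) in MC903 ears, and a 95% interval of the log2 fold change of -0.29 to 0.13. E2f2 was the 1 gene that rose, with 38.5 to 51.1 CPM (median 45.2) in MC903+RGRN-305 ears, against 25.03 to 42.4 CPM (median 37.3) in MC903 ears (0.30 ± 0.09, adjusted p 0.0092). It was above the MC903 range in 5 of 8 ears.

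Of the S phase genes, Ccne1 had 4.89 to 12 CPM (median 6.65) in MC903+RGRN-305 ears, against 10.4 to 17 CPM (median 11.9) in MC903 ears (-0.83 ± 0.14, adjusted p 4.1e-05). Rrm2 had 26.3 to 61.4 CPM (median 39.2) in MC903+RGRN-305 ears, against 58.3 to 100.01 CPM (median 73.7) in MC903 ears (-0.89 ± 0.14, adjusted p 2.0e-05). For both genes 7 of the 8 ears given RGRN-305 lay below all MC903 ears. The helicase subunits Mcm2 to Mcm6 fell by log2 fold changes between -0.39 (Mcm6) and -0.58 (Mcm3), and Mcm7 was not called (-0.11 ± 0.07, adjusted p 0.22). Mcm5 had 36.98 to 70.4 CPM (median 46.97) in MC903+RGRN-305 ears, against 60.4 to 76.9 CPM (median 70.7) in MC903 ears (-0.50 ± 0.11, adjusted p 8.0e-04), and Mcm2 had 22.5 to 32.6 CPM (median 26.8) in MC903+RGRN-305 ears, against 30.1 to 41.2 CPM (median 37.7) in MC903 ears (-0.44 ± 0.10, adjusted p 0.0013). Cdc6 had 4.47 to 6.97 CPM (median 6.14) in MC903+RGRN-305 ears, against 6.96 to 9.59 CPM (median 8.42) in MC903 ears (-0.47 ± 0.12, adjusted p 0.0025). These helicase and loading genes each had 6 or 7 of 8 ears below the MC903 range. Cdt1 (-0.36 ± 0.10, adjusted p 0.0046) and Pcna (-0.30 ± 0.09, adjusted p 0.0068) fell less. Tk1 was not called, with 19.5 to 29.2 CPM (median 22.4) in MC903+RGRN-305 ears, against 19.8 to 23.9 CPM (median 21.6) in MC903 ears (0.10 ± 0.09, adjusted p 0.43), and neither Ccne2 (-0.19 ± 0.14, adjusted p 0.29) nor Tyms, thymidylate synthase (-0.03 ± 0.10, adjusted p 0.81), was called.

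The 7 mitotic genes that fell were Top2a, Aurka, Plk1, Birc5, Tpx2, Cenpa and Ndc80. Top2a had 89.1 to 140.2 CPM (median 103) in MC903+RGRN-305 ears, against 134 to 157 CPM (median 148) in MC903 ears (-0.41 ± 0.09, adjusted p 5.2e-04). Birc5 had 19.3 to 30.9 CPM (median 23.9) in MC903+RGRN-305 ears, against 25.1 to 39.3 CPM (median 31.05) in MC903 ears (-0.42 ± 0.11, adjusted p 0.0027). Plk1 had 13.4 to 19.8 CPM (median 15.5) in MC903+RGRN-305 ears, against 17.01 to 22.3 CPM (median 20.3) in MC903 ears (-0.35 ± 0.11, adjusted p 0.011). The groups overlapped for all 3, with 5 to 7 of 8 ears below the MC903 range. The cyclins and their kinase did not pass the test: Ccna2 had 35.8 to 62.9 CPM (median 45.8) in MC903+RGRN-305 ears, against 46 to 55.5 CPM (median 49.4) in MC903 ears, with an interval of -0.30 to 0.12, and Ccnb1 had 12.9 to 23.8 CPM (median 15.2) in MC903+RGRN-305 ears, against 16.4 to 21 CPM (median 18.1) in MC903 ears, with an interval of -0.40 to 0.06. For Cdk1 the log2 fold change was -0.27 ± 0.11 (adjusted p 0.060). Mki67 had 101 to 145 CPM (median 126) in MC903+RGRN-305 ears, against 126 to 147 CPM (median 135) in MC903 ears (-0.11 ± 0.07, adjusted p 0.23). Of the other mitotic genes followed by name, Aurkb (-0.20), Bub1b (-0.14), Kif11 (-0.22), Kif20a (-0.02), Cdc20 (-0.03) and Cenpf (0.01) were not called.

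The ears given RGRN-305 were unequal. Mouse 6 had the highest summed level of the 53 genes in its group, 1846 CPM, with 49 of 53 genes above the group mean, and mouse 4 the next, 1712 CPM, with 40 of 53, whereas mouse 1 had 4 of 53. Mouse 6 and mouse 4 also had the highest summed stress keratins of the group, 7058 and 4532 CPM, beside 1392 to 3392 CPM in the other 6 ears. Mouse 6 had the highest leukocyte (235.1 CPM), T cell (23.8 CPM), macrophage (304.0 CPM) and neutrophil (116.4 CPM) marker sums of the group as well. Mouse 4 was not the highest for leukocyte markers, at 169.1 CPM. Without mouse 6 the number of genes that fell was 30, and without mouse 1 it was 19. The falls went with a fall of leukocyte markers, 4 of 4 lower, to 135.1 to 235.1 CPM in MC903+RGRN-305 ears, against 313.8 to 480.5 CPM in MC903 ears, and of stress keratins, 4 of 4 lower, at 1392 to 7058 CPM in MC903+RGRN-305 ears, against 10369 to 30649 CPM in MC903 ears. Basal keratinocyte markers had 13789 to 17441 CPM in MC903+RGRN-305 ears, against 18085 to 24356 CPM in MC903 ears, with 4 of 8 lower and 2 of 8 higher. Of the listed suprabasal keratinocyte markers Lor was not found, which left Krt1, Krt10, Flg and Ivl. Their sum was 33462 to 49842 CPM (median 40333) in MC903+RGRN-305 ears, against 26840 to 42502 CPM (median 36407) in MC903 ears. A sum can follow its most abundant gene, and single genes of this list are not given. The part of these cell types in the falls was not tested.

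**Figure D3:**
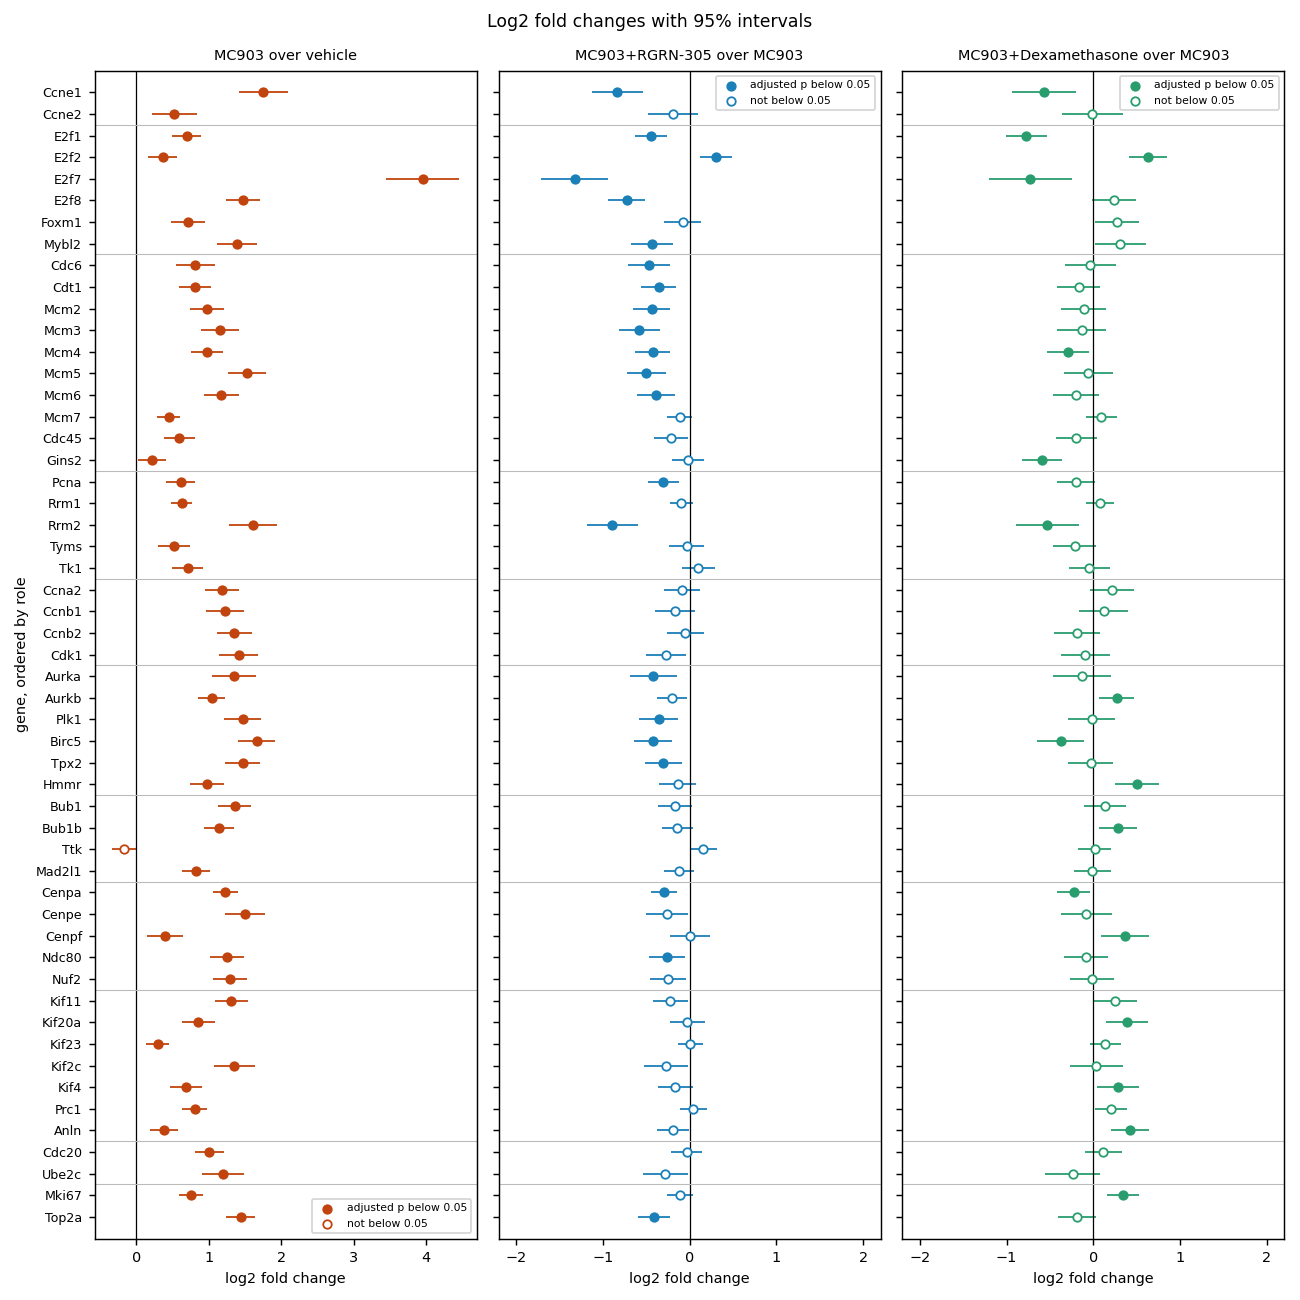
Log2 fold changes of the 53 genes, ordered by role, with 95% intervals, for MC903 over vehicle, MC903+RGRN-305 over MC903 and MC903+Dexamethasone over MC903. Filled points have an adjusted p below 0.05, and the first panel has a wider axis. The first panel holds 52 filled points to the right of 0, the second 21 to the left and 1 to the right, and the third 9 to the right and 8 to the left.

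The comparison of MC903+Dexamethasone with MC903 ears gave changes in both directions. Of the 53 genes, 9 rose and 8 fell in MC903+Dexamethasone ears, beside 23.0% and 23.3% of all genes tested, so that neither share exceeded that of all genes. The median log2 fold change was -0.02 over the 53 genes, against 0.00 over all genes. By role, 8 of the 9 genes that rose were mitotic (Mki67, Hmmr, Anln, Kif20a, Kif4, Cenpf, Bub1b and Aurkb), and 6 of the 8 that fell were replication genes (E2f1, E2f7, Ccne1, Gins2, Rrm2 and Mcm4). Set against their groups, 8 of 30 mitotic genes rose and 6 of 23 replication genes fell. Both shares were near the 23.0% and 23.3% of all genes tested. The medians were 0.07 for the 30 mitotic and -0.14 for the 23 replication genes, a difference that was not tested. Without overlap between the groups, 6 genes were higher and 4 lower, beside 12.7% and 14.0% of all genes tested, so these shares did not exceed those of all genes either. None of the 53 passed the log2 fold change limit of 1.5, beside 2.60% of all genes tested upward and 5.89% downward.

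Mki67 had 166, 168, 173 and 175 CPM in MC903+Dexamethasone ears, against 126 to 147 CPM (median 135) in MC903 ears (0.34 ± 0.09, adjusted p 0.0027). Hmmr, which binds hyaluronan and the spindle, had 17.1, 19.7, 19.99 and 19.04 CPM in MC903+Dexamethasone ears, against 10.1 to 15.8 CPM (median 14.1) in MC903 ears (0.51 ± 0.12, adjusted p 0.0014). Anln, anillin, which organises the contractile ring of dividing cells, had 57.1, 56.9, 54.5 and 55.2 CPM in MC903+Dexamethasone ears, against 32.9 to 46.5 CPM (median 42.5) in MC903 ears (0.42 ± 0.11, adjusted p 0.0022). All 4 ears given dexamethasone lay above all 8 MC903 ears for these 3 genes. The same held for Kif20a, with 30.03, 31.7, 36.04 and 32.3 CPM in MC903+Dexamethasone ears, against 19.9 to 28.3 CPM (median 24.9) in MC903 ears (0.39 ± 0.12, adjusted p 0.010). It also held for E2f2, the only replication gene that rose, with 64.5, 54.5, 50.8 and 54.6 CPM in MC903+Dexamethasone ears, against 25.03 to 42.4 CPM (median 37.3) in MC903 ears (0.63 ± 0.11, adjusted p 2.6e-05). Kif4, a chromosome-bound kinesin, was the sixth (0.28 ± 0.12, adjusted p 0.0497), but at the edge of the threshold, and only 5 of the 26 fits without 1 mouse called it. Bub1b had 26.6, 28.7, 38.5 and 30.2 CPM in MC903+Dexamethasone ears, against 21.7 to 27.8 CPM (median 25.95) in MC903 ears (0.28 ± 0.11, adjusted p 0.031). Aurkb had 26.3, 25.6, 29.9 and 27.7 CPM in MC903+Dexamethasone ears, against 19.6 to 26.8 CPM (median 21.9) in MC903 ears (0.27 ± 0.10, adjusted p 0.030). Cenpf had 32.1, 29.6, 35.9 and 30.2 CPM in MC903+Dexamethasone ears, against 19.01 to 29.8 CPM (median 25.2) in MC903 ears (0.36 ± 0.13, adjusted p 0.028). These last 3 genes overlapped between the groups, and each lost its call without MC903 mouse 5 or without MC903+Dexamethasone mouse 3.

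On the other side, E2f1 had 10.6, 8.30, 10.6 and 9.65 CPM in MC903+Dexamethasone ears, against 13.9 to 19.3 CPM (median 16.5) in MC903 ears (-0.77 ± 0.12, adjusted p 3.8e-06). E2f7 had 16.7, 20.3, 22.4 and 21.6 CPM in MC903+Dexamethasone ears, against 24.6 to 41.97 CPM (median 31.8) in MC903 ears (-0.73 ± 0.23, adjusted p 0.012). Gins2 had 6.30, 6.53, 8.36 and 6.59 CPM in MC903+Dexamethasone ears, against 9.68 to 11.7 CPM (median 10.49) in MC903 ears (-0.60 ± 0.11, adjusted p 9.4e-05). With Ccne1, at 7.94, 8.34, 9.79 and 7.88 CPM in MC903+Dexamethasone ears, against 10.4 to 17 CPM (median 11.9) in MC903 ears (-0.57 ± 0.18, adjusted p 0.010), these were the 4 genes with all ears given dexamethasone below all MC903 ears. Rrm2 had 45.95, 46.8, 63.3 and 54.1 CPM in MC903+Dexamethasone ears, against 58.3 to 100.01 CPM (median 73.7) in MC903 ears (-0.53 ± 0.18, adjusted p 0.016), and Birc5 had 18.6, 24.6, 28.8 and 25.6 CPM in MC903+Dexamethasone ears, against 25.1 to 39.3 CPM (median 31.05) in MC903 ears (-0.38 ± 0.13, adjusted p 0.021). Mcm4 (-0.29 ± 0.12, adjusted p 0.048) and Cenpa, the centromeric histone (-0.23 ± 0.09, adjusted p 0.044), were near the threshold, and each was called in 18 of the 26 fits without 1 mouse. E2f7, Birc5 and Rrm2 lost their calls without MC903+Dexamethasone mouse 1, and Rrm2 also without mouse 2.

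The other genes followed by name were not called in MC903+Dexamethasone ears. E2f8, which fell with RGRN-305, had 32.4, 29.7, 31.3 and 32.4 CPM in MC903+Dexamethasone ears, against 21.5 to 30.9 CPM (median 26.4) in MC903 ears, and an interval of -0.02 to 0.49. Mybl2 (0.31, interval 0.02 to 0.60) and Foxm1 (0.27, interval 0.02 to 0.53) had positive values with adjusted p of 0.074 and 0.073. Mcm5 had 63.8, 65.7, 76.7 and 62.2 CPM in MC903+Dexamethasone ears, against 60.4 to 76.9 CPM (median 70.7) in MC903 ears, an interval of -0.34 to 0.22. The log2 fold change was -0.11 for Mcm2, -0.04 for Cdc6, -0.17 for Cdt1, -0.20 for Pcna, -0.05 for Tk1 and -0.01 for Ccne2. Of the mitotic genes it was 0.22 for Ccna2, 0.12 for Ccnb1, -0.09 for Cdk1, -0.02 for Plk1, 0.25 for Kif11, 0.12 for Cdc20 and -0.19 for Top2a. Over the whole groups, called or not, 17 of the 30 mitotic genes had a positive value. So did 6 of the 23 replication genes, Mybl2 and Foxm1 among them. The median over all genes tested was 0.00, so positive and negative values were about equally frequent there, and 17 of 30 is near that. Single ears decided some calls. Mouse 3 had the highest summed level, 2022 CPM, with 48 of 53 genes above its group's mean, and also the highest stress keratins, 16274 CPM, beside 6064 to 7330 CPM in the other 3. It had the highest leukocyte marker sum of its group too, 132.9 CPM, beside 52.1 to 86.9 CPM. The same held for T cell (15.3 CPM, beside 5.44 to 7.87 CPM) and neutrophil markers (95.7 CPM, beside 27.0 to 43.5 CPM), but not for macrophage markers. The number that rose was 5 without MC903+Dexamethasone mouse 3, and also 5 without MC903 mouse 5. The number that fell was 3 without MC903+Dexamethasone mouse 1 and 5 without mouse 2. With upper-quartile scaling in place of TMM, 13 rose and 6 fell.

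The level of division genes in ears given dexamethasone stood beside low leukocyte markers, 4 of 4 lower, at 52.1 to 132.9 CPM in MC903+Dexamethasone ears, against 313.8 to 480.5 CPM in MC903 ears. T cell markers were lower as well, 6 of 6, at 5.44 to 15.3 CPM in MC903+Dexamethasone ears, against 30.0 to 52.2 CPM in MC903 ears. Basal keratinocyte markers had 17367 to 19952 CPM in MC903+Dexamethasone ears, against 18085 to 24356 CPM in MC903 ears, with 2 of 8 higher and 2 of 8 lower, and the stress keratins had 6064 to 16274 CPM in MC903+Dexamethasone ears, against 10369 to 30649 CPM in MC903 ears, with 2 of 4 lower. The sum of the 4 suprabasal keratinocyte markers found went the other way, at 42451 to 52068 CPM (median 47879) in MC903+Dexamethasone ears. In MC903 ears they had 26840 to 42502 CPM (median 36407). The part of these cell types was not tested.

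**Figure D4:**
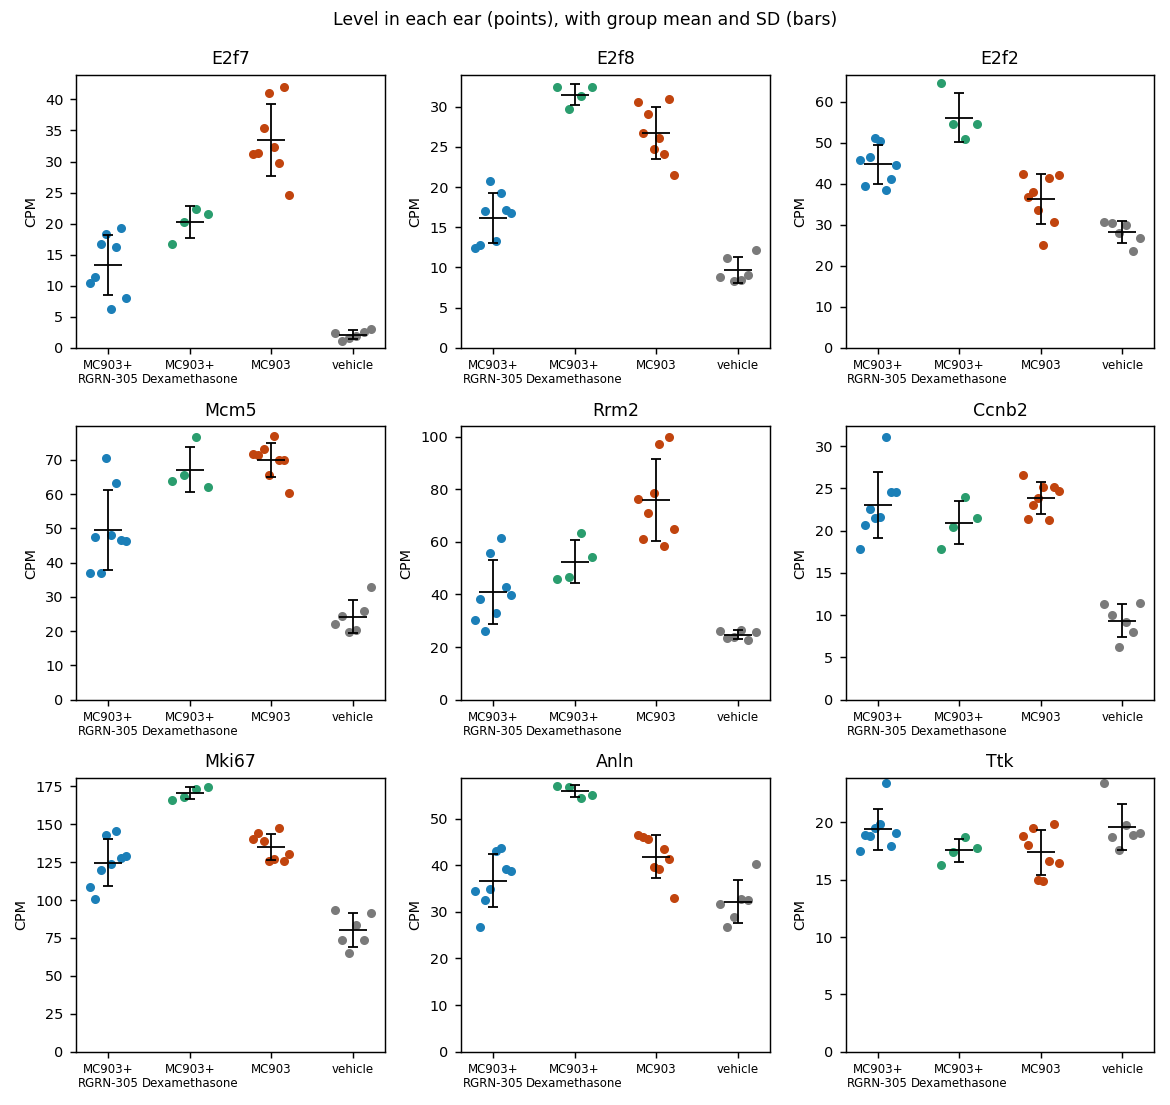
Level in CPM of 9 of the genes in each ear (points), by group, with the group mean and SD (bars), each axis from 0. E2f7 and Rrm2 are lower with either drug than in MC903 ears, E2f8 and Mcm5 are lower with RGRN-305, Mki67 and Anln are highest with dexamethasone, and Ccnb2 and Ttk overlap among the 3 groups given MC903.

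The direct comparison of MC903+RGRN-305 with MC903+Dexamethasone ears tests whether the drugs differed. In MC903+RGRN-305 ears 20 of the 53 genes were lower and 2 were higher, beside 17.8% and 17.6% of all genes tested, with a median log2 fold change of -0.26 over the 53 genes, against 0.01 over all genes. No gene passed the limit of 1.5, beside 2.15% of all genes tested upward and 1.63% downward. The lower genes were 11 of the 30 mitotic and 9 of the 23 replication genes. E2f8 differed most, with 12.4 to 20.8 CPM (median 16.9) in MC903+RGRN-305 ears, against 32.4, 29.7, 31.3 and 32.4 CPM in MC903+Dexamethasone ears (-0.96 ± 0.12, adjusted p 5.7e-07). Mybl2 had 5.94 to 12.5 CPM (median 8.998) in MC903+RGRN-305 ears, against 16.4, 13.4, 15.02 and 15.02 CPM in MC903+Dexamethasone ears (-0.74 ± 0.14, adjusted p 1.5e-04). Hmmr had 10.1 to 14.2 CPM (median 12.4) in MC903+RGRN-305 ears, against 17.1, 19.7, 19.99 and 19.04 CPM in MC903+Dexamethasone ears (-0.64 ± 0.12, adjusted p 1.8e-04). No ear of one drug reached the range of the other for these 3 genes, nor for 7 further genes that were lower. Without overlap 10 genes were thus lower and 1 higher, beside 9.47% and 9.09% of all genes tested.

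Mki67 was among those 7, with 101 to 145 CPM (median 126) in MC903+RGRN-305 ears, against 166, 168, 173 and 175 CPM in MC903+Dexamethasone ears (-0.45 ± 0.09, adjusted p 2.2e-04), as was Anln, with 26.7 to 43.6 CPM (median 36.9) in MC903+RGRN-305 ears, against 57.1, 56.9, 54.5 and 55.2 CPM in MC903+Dexamethasone ears (-0.61 ± 0.11, adjusted p 5.6e-05). Aurkb (-0.47 ± 0.10), Bub1b (-0.42 ± 0.11), Cdc6 (-0.43 ± 0.14), Cenpf (-0.36 ± 0.13) and Kif4 (-0.45 ± 0.12) were the other 5. The 2 genes that were higher with RGRN-305 were replication genes. Gins2 had 8.42 to 13.2 CPM (median 10.1) in MC903+RGRN-305 ears, against 6.30, 6.53, 8.36 and 6.59 CPM in MC903+Dexamethasone ears (0.57 ± 0.11, adjusted p 2.3e-04), without overlap. E2f1 had 10.53 to 14.7 CPM (median 11.9) in MC903+RGRN-305 ears, against 10.6, 8.30, 10.6 and 9.65 CPM in MC903+Dexamethasone ears (0.32 ± 0.11, adjusted p 0.027), and was not called without MC903+RGRN-305 mouse 4 or 6 or MC903+Dexamethasone mouse 2 or 4, which left 1 gene higher. For Ccne1 (-0.26, interval -0.62 to 0.10), Rrm2 (-0.36, interval -0.71 to -0.004), Birc5 (-0.04, interval -0.31 to 0.23) and Top2a (-0.22, interval -0.44 to 0.001) the direct test found no difference at the threshold. The number of lower genes was 28 without MC903+RGRN-305 mouse 6 and 12 without MC903+Dexamethasone mouse 3.

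With either drug most division genes stayed above their level in vehicle ears. In MC903+RGRN-305 ears 49 of the 53 genes were higher than in vehicle ears and none lower, beside 30.3% and 29.5% of all genes tested, with a median log2 fold change of 0.83. Past the limit of 1.5 stood 1 gene, beside 3.98% of all genes tested upward and 4.03% downward. In MC903+Dexamethasone ears 50 were higher and 1 lower, beside 26.4% and 29.4% of all genes tested, with a median of 1.08, and 4 stood past the limit (E2f7, E2f8, Mybl2 and Kif11), beside 4.79% of all genes upward and 4.90% downward. These comparisons share their vehicle ears with that of MC903. In 33 genes all 8 MC903+RGRN-305 ears lay above all vehicle ears and in none below, beside 13.8% of all genes tested above and 14.8% below. In 48 genes all 4 MC903+Dexamethasone ears lay above all vehicle ears and in none below, beside 19.7% and 22.1% of all genes tested. The counts of 33 and 48 are not comparable, since fewer ears overlap less easily. E2f7 remained the most raised gene with either drug, at 2.63 ± 0.24 in MC903+RGRN-305 ears (adjusted p 1.2e-09) and 3.23 ± 0.26 in MC903+Dexamethasone ears (adjusted p 1.1e-10) relative to vehicle. Next came Ccnb2 (1.30 ± 0.12) and Birc5 (1.24 ± 0.12) in MC903+RGRN-305 ears, and E2f8 (1.71 ± 0.13) and Mybl2 (1.69 ± 0.15) in MC903+Dexamethasone ears.

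Ccnb2, a second mitotic cyclin B, had 17.9 to 31.1 CPM (median 22.1) in MC903+RGRN-305 ears, 17.8, 20.4, 24.04 and 21.5 CPM in MC903+Dexamethasone ears and 21.2 to 26.5 CPM (median 24.3) in MC903 ears, against 6.23 to 11.4 CPM (median 9.59) in vehicle ears. Its ranges overlapped among all 3 groups given MC903 and none reached the vehicle range. In MC903+RGRN-305 ears the 4 genes not called against vehicle were Ccne2 (0.33 ± 0.15, adjusted p 0.066), Gins2 (0.19 ± 0.10, adjusted p 0.085), Anln (0.19 ± 0.10, adjusted p 0.093) and Ttk (-0.01 ± 0.08, adjusted p 0.89). In MC903+Dexamethasone ears E2f1 (-0.08 ± 0.12, adjusted p 0.60) and Ttk (-0.16 ± 0.10, adjusted p 0.17) were not called, and Gins2 was below vehicle, with 6.30, 6.53, 8.36 and 6.59 CPM in MC903+Dexamethasone ears, against 8.18 to 10.4 CPM (median 8.90) in vehicle ears (-0.38 ± 0.12, adjusted p 0.0074). Leukocyte markers were 4 of 4 higher than vehicle in MC903+RGRN-305 ears and not called in either direction in MC903+Dexamethasone ears, where 4 of 4 stress keratins were higher.

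A further 156 genes of the cell cycle, listed by role, behaved like the 53 in the first comparison only in part. Of the 155 that could be tested, 114 were higher and 17 lower in MC903 than in vehicle ears, beside 34.5% and 35.7% of all genes tested. In MC903+RGRN-305 ears 12 were higher and 49 lower than in MC903 ears, beside 18.6% and 19.4% of all genes tested. In MC903+Dexamethasone ears 30 were higher and 27 lower than in MC903 ears, beside 23.0% and 23.3% of all genes tested, both shares below those of all genes. Among them were the DNA polymerase and fork repair genes, with 25 of 28 higher in MC903 ears and 11 of 28 lower with RGRN-305, and further mitotic genes, with 46 of 51 higher in MC903 ears and 14 of 51 lower with RGRN-305. Orc1, a subunit of the origin recognition complex, had a mean of 12.5 CPM in MC903 ears, against 1.84 CPM in vehicle ears (2.75 ± 0.22, adjusted p 1.3e-11), and it was lower with RGRN-305, with 6.16 CPM in MC903+RGRN-305 ears, against 12.5 CPM in MC903 ears (-1.01 ± 0.18, adjusted p 5.4e-05). Pold3, a subunit of DNA polymerase delta, and Rfc2, of the clamp loader, were lower with either drug: Rfc2 had -0.48 ± 0.07 with RGRN-305 (adjusted p 4.2e-06) and -0.86 ± 0.09 with dexamethasone (adjusted p 1.3e-08), each over MC903 ears. Fbxo5, an inhibitor of the anaphase-promoting complex and itself a target of E2F, was also lower with RGRN-305 (-0.47 ± 0.08, adjusted p 5.8e-05).

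The regulators of G1 act before S phase. Of 6 D cyclin and kinase genes, 3 were higher and 3 lower in MC903 than in vehicle ears, beside 34.5% and 35.7% of all genes tested. Ccnd3, the cyclin D of lymphoid cells among others, had a mean of 107 CPM in MC903 ears, against 52.3 CPM in vehicle ears (1.03 ± 0.09, adjusted p 1.2e-10), and Cdk6 had 159.7 CPM in MC903 ears, against 61.4 CPM in vehicle ears (1.38 ± 0.10, adjusted p 1.2e-12). Ccnd2 had 144 CPM in MC903 ears, against 307 CPM in vehicle ears (-1.10 ± 0.10, adjusted p 8.0e-11), and Ccnd1 was lower too (-0.43 ± 0.07, adjusted p 7.3e-06). With dexamethasone, Ccnd1 had 123 CPM in MC903+Dexamethasone ears, against 80.3 CPM in MC903 ears (0.61 ± 0.08, adjusted p 7.3e-07), and Ccnd3 had 48.99 CPM in MC903+Dexamethasone ears, against 107 CPM in MC903 ears (-1.13 ± 0.11, adjusted p 3.1e-09). Ccnd2 was also higher over MC903 ears (0.54 ± 0.11, adjusted p 2.0e-04). Cdk6 (-0.49 ± 0.11, adjusted p 4.4e-04) and Cdk2 (-0.21 ± 0.07, adjusted p 0.011) were lower, and Cdk4 was not called (0.03 ± 0.07, adjusted p 0.76). Of all genes tested, 23.0% rose and 23.3% fell there. With RGRN-305 Ccnd3 was lower (-0.52 ± 0.08, adjusted p 1.5e-05), Ccnd2 was higher (0.33 ± 0.09, adjusted p 0.0044) and Ccnd1 was not called (0.12 ± 0.07, adjusted p 0.19). Cdk6 was lower (-0.59 ± 0.09, adjusted p 4.1e-06), Cdk4 was higher (0.20 ± 0.06, adjusted p 0.0072) and Cdk2 was not called (-0.01 ± 0.05, adjusted p 0.92). Of all genes tested, 18.6% rose and 19.4% fell with RGRN-305.

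Of the inhibitors of cyclin-dependent kinases, 6 of 7 could be tested. Of these, 2 were higher and 3 lower in MC903 than in vehicle ears, beside 34.5% and 35.7% of all genes tested. Cdkn1c, the inhibitor p57, had the largest change, with 12.2 CPM in MC903 ears, against 48.3 CPM in vehicle ears (-1.98 ± 0.13, adjusted p 2.8e-13). It was higher with each drug than in MC903 ears, with 22.6 CPM in MC903+RGRN-305 ears (0.88 ± 0.12, adjusted p 1.9e-06) and 37.9 CPM in MC903+Dexamethasone ears (1.63 ± 0.14, adjusted p 5.3e-10), and it was lower in MC903+RGRN-305 than in MC903+Dexamethasone ears (-0.74 ± 0.14, adjusted p 1.4e-04). Cdkn1b, the inhibitor p27, was lower in MC903 than in vehicle ears (-0.53 ± 0.10, adjusted p 2.9e-05), and Cdkn2d was higher (0.91 ± 0.13, adjusted p 3.0e-07). Unlike Cdkn1c, Cdkn2d was lower than in MC903 ears with RGRN-305 (-0.52 ± 0.11, adjusted p 6.9e-04) and with dexamethasone (-0.85 ± 0.15, adjusted p 2.6e-05). Cdkn1b was not called over MC903 ears with RGRN-305 (adjusted p 0.059) or dexamethasone (adjusted p 0.14). Cdkn2b was higher over MC903 ears with RGRN-305 (0.24 ± 0.08, adjusted p 0.018) and with dexamethasone (0.30 ± 0.10, adjusted p 0.012). Cdkn2c was higher only with RGRN-305 (0.34 ± 0.07, adjusted p 1.2e-04), and Cdkn1a only with dexamethasone (0.23 ± 0.07, adjusted p 0.0057). Over all genes tested, 18.6% rose and 19.4% fell with RGRN-305, and 23.0% and 23.3% with dexamethasone.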

How the data were processed

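RNA from whole ear skin of 26 mice was sequenced. The authors aligned the reads to GRCm39 and counted them per gene (Subread 2.10.3 in the submitters' processing notes), and deposited raw counts for 57010 gene identifiers with each gene's length. Identifiers were matched to GENCODE symbols (56310 matched). Genes passing edgeR's filterByExpr (minimum count 10, minimum total 15) were kept, and all 26 libraries entered 1 quasi-likelihood fit with TMM factors and 6 contrasts (edgeR 4.0.16, R 4.3.3). P-values were adjusted by Benjamini-Hochberg over the 20167 genes. The fit was tested on simulated data. Levels are CPM on TMM-scaled library sizes. Standard errors were worked back from each gene's log2 fold change and F statistic in the quasi-likelihood test, and 95% intervals were built from them. Groups came from the sample labels. Alternatives were DESeq2 1.42.0, other scaling factors, no filter, 2-group fits, a replicate block, a log2 fold change limit of 1.5 and leaving out each mouse. Named genes were key regulators and markers, the 3 largest changes in each direction, and small sets called or not called. The 53 genes and the other lists were chosen with earlier results of these data known. Promoters were RefSeq's (GRCm38.p6), and Tpx2, Aurkb, Mcm4, Ccne2, Foxm1, Gins2, Ccna2 and Kif20a had no entry matched. Figures were drawn with matplotlib 3.10.9.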

Additional observations from a re-analysis of the deposited data

Results flagged for a closer look

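Of 224 sets of values, 212 of them 1 gene in 1 group and 12 a summed level in 1 group, 8 had a single ear far from the rest. That is fewer than chance gives, about 1 in 20. Mouse 6 of the MC903+RGRN-305 group was such an ear for Ttk, at 23.4 CPM beside 17.5 to 19.9 CPM in its group, and for Ube2c, the ubiquitin-conjugating enzyme of the anaphase-promoting complex, at 30.03 CPM beside 18.3 to 22.8 CPM. Mouse 2 of that group was low for Cenpf, at 16.5 CPM beside 24.03 to 28.7 CPM. Mouse 3 of the MC903+Dexamethasone group was high for Gins2, at 8.36 CPM beside 6.30 to 6.59 CPM, and for Cenpe, a kinetochore motor, at 28.04 CPM beside 18.8 to 19.3 CPM. In the MC903 group, mouse 8 was low for Mybl2, at 7.73 CPM beside 10.8 to 14.2 CPM, and mouse 5 was high for Mcm7, at 55.6 CPM beside 42.5 to 45.9 CPM. In the vehicle group, mouse 6 was high for Cdt1, at 17.7 CPM beside 12.5 to 13.9 CPM.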

How the results depend on the processing

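No called value changed sign under any alternative run, and with DESeq2 or its size factors every count of the 53 genes stayed within 1.5 times. With the log2 fold change limit of 1.5, 5 genes rose in MC903 over vehicle ears, 1 in MC903+RGRN-305 over vehicle and 4 in MC903+Dexamethasone over vehicle, where 0 fell, and 0 rose and 0 fell in MC903+RGRN-305 or MC903+Dexamethasone over MC903 and between the drugs. Upper-quartile scaling, with a median over all genes of -0.11 in MC903 and in MC903+Dexamethasone over vehicle (-0.02 and -0.05 with TMM), gave 1 fall in MC903 over vehicle (Ttk), 2 rises and 19 falls in MC903+RGRN-305 over MC903 (over all genes 4797 rises and 3327 falls there, beside 3745 and 3905 with TMM), 2 falls in MC903+Dexamethasone over vehicle, and 13 rises and 6 falls in MC903+Dexamethasone over MC903. A fit of only the 2 groups gave 14 rises there. Leaving out 1 mouse gave 51 to 52 rises and 0 to 1 falls in MC903 over vehicle, 19 to 30 falls in MC903+RGRN-305 over MC903, 5 to 11 rises and 3 to 9 falls in MC903+Dexamethasone over MC903, and 1 to 2 genes higher and 12 to 28 lower in MC903+RGRN-305 over MC903+Dexamethasone.

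Mouse numbers recur in all groups, but same-numbered mice did not deviate together (32 pairs, r of -0.34 to 0.29, 8 above 0.1). With the replicate block, 4 genes fell in MC903+Dexamethasone over MC903 and 1 was higher in MC903+RGRN-305 over MC903+Dexamethasone. The other counts stayed within 1.5 times. The cause of these changes was not tested. Whole ear RNA cannot separate cell numbers from levels per cell.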

Other observations

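Genes of cell growth, which dividing cells need for ribosomes and polyamines, were listed beside the division genes. Of 7 such genes, 5 were higher and 1 lower in MC903 than in vehicle ears, beside 34.5% and 35.7% of all genes tested. Odc1, ornithine decarboxylase, the first enzyme of polyamine synthesis, had a mean of 62.1 CPM in MC903 ears, against 29.1 CPM in vehicle ears (log2 fold change 1.09 ± 0.15, adjusted p 3.6e-07). With RGRN-305 it was the 1 gene of the list that fell, to 28.96 CPM in MC903+RGRN-305 ears, against 62.1 CPM in MC903 ears (-1.10 ± 0.14, adjusted p 6.6e-07). With dexamethasone, Myc, the growth factor-induced transcription factor, rose to 115 CPM in MC903+Dexamethasone ears, against 63.6 CPM in MC903 ears (0.85 ± 0.11, adjusted p 5.4e-07). The nucleolar genes Nop56 (0.74 ± 0.11, adjusted p 2.7e-06) and Ncl (0.46 ± 0.09, adjusted p 6.2e-05) rose with it.

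Of 15 genes of the anaphase-promoting complex, 6 were higher and 4 lower in MC903 than in vehicle ears, beside 34.5% of all genes tested that were higher and 35.7% that were lower. Anapc5 (-0.50 ± 0.06, adjusted p 1.8e-08) and Anapc2 (-0.43 ± 0.06, adjusted p 2.1e-07) were lower, while Ube2s, its ubiquitin chain elongating enzyme, was higher (0.98 ± 0.16, adjusted p 3.2e-06). Of the retinoblastoma relatives in MC903 ears, Rbl1 was higher (0.79 ± 0.07, adjusted p 2.7e-11) and Rbl2 was lower (-0.58 ± 0.09, adjusted p 2.6e-06) than in vehicle ears.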
